A study of Mus musculus with 46 samples.

Results

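The 10 genes described here code for the core subunits of the BAF (Brg/Brahma-associated factor) chromatin remodelling complex that exist as paralogues, together with the shared subunit ACTL6A. They were taken by symbol: the ATPases Smarca4 and Smarca2, the scaffold subunits Smarcc1 and Smarcc2, the trio Smarcd1, Smarcd2 and Smarcd3, the ARID subunits Arid1a and Arid1b, and Actl6a. All 10 were found among the 37108 genes of a gene table, and 62 transcripts carried their symbols among the 106520 of a transcript table. The study turned mouse embryonic fibroblasts (MEF) towards induced pluripotent stem cells (iPSC) with retroviral Oct4 plus either native Nanog (named NanogWT here, labelled Nanog+Oct4) or Nanog joined to an N-terminal piece of SS18 that binds the ATPase BRG1 (NanogBiD, labelled NanogN70+Oct4). By the study's methods the MEF came from midgestation embryos of male OG2 mice (CBA/CaJ x C57BL/6J, with an Oct4-GFP reporter) and females of the 129S2/SvPasCrl strain, so MEF and time-course cells share the reporter. Bulk RNA was sequenced on 8 days from D0 to D12 (further D1, D3, D5, D7, D8 and D10), with 2 replicates per combination and day except 1 for NanogBiD at D8. D0 is the end of infection, and the medium was switched to a 2i and LIF medium after D7. Besides these 31 libraries there were 2 of uninfected MEF, 1 of OG2 embryonic stem cells (mES) and 12 of established iPSC, 6 per combination, from lines called iPSC1 and iPSC2. The headers give these lines different passages, which leaves passage and line inseparable. Within iPSC1 the NanogWT samples also differ in passage from each other, and some of them from the NanogBiD samples. Whether samples 1# and 1#-2 of NanogWT iPSC1 are 1 clone is not stated, and they were counted as separate libraries. The vectors are pMXs retroviruses, whose expression differs between cells, and every time-course culture is a mixture of cells at different stages. Nothing in the labels says whether replicates came from separate cultures, so the tests measure the spread between these libraries, which may be technical.

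BAF complexes slide and evict nucleosomes with the ATPase SMARCA4 (BRG1) or its paralogue SMARCA2 (BRM), of which each complex holds one. SMARCC1 (BAF155) and SMARCC2 (BAF170) form the scaffold, SMARCD1, SMARCD2 and SMARCD3 (BAF60A, BAF60B and BAF60C) link it to transcription factors, and ARID1A or ARID1B marks the canonical form of the complex. ACTL6A (BAF53A) is the actin-related subunit of dividing cells. The complex of embryonic stem cells is known for SMARCA4, SMARCC1, SMARCD1, ARID1A and ACTL6A and for little SMARCA2 and SMARCC2, and the exchange of one paralogue for another along a change of cell state is called a switch.

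Values are FPKM, fragments scaled by gene length and library size, so the levels of different genes can be set side by side. Relative depth, read from the steps between low values, ran from 1.85 to 3.17 in the 6 late NanogWT libraries (D8 to D12) against 0.808 to 1.10 for the other 28 libraries of the gene table, so from D8 on depth and combination cannot be told apart. Replicates of a group correlated across genes at r = 0.979 to 0.995. The summed level of 10 fibroblast marker genes was 5964 to 6886 FPKM in MEF and 2439 to 2898 at D0. At D12 it was 298 to 442 with NanogBiD and 2865 to 3367 with NanogWT, and it was 8.35 in mES. The summed level of 10 pluripotency marker genes was 1316 to 2364 FPKM at D12 with NanogBiD, 163 to 235 with NanogWT and 3712 in mES, against 1.41 or less in MEF, with 9 of the 10 at 0 in both MEF libraries. Macrophage markers (5 genes) summed to 49.1 to 138 FPKM at D0 against 3.93 to 7.42 in MEF, and endothelial markers (4 genes) to 15.4 to 28.2 at D12 with NanogBiD against 48.5 in mES. Of the 4 endothelial genes, 2 reached 1 FPKM at D12 with NanogBiD and 1 did in mES, so that sum does not stand for the list. The subunit levels moved together with the make-up of the cultures, whose part in them was not tested. In bulk RNA, fewer cells that use a paralogue cannot be told apart from less of its RNA per cell.

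Gene positions below are those of RefSeq on GRCm38.p6, the assembly that mm10 names. The promoter windows shown here (250 bases before to 50 after the annotated start site, from the same RefSeq release) belong to the paralogue pair with the largest shift in ratio, Smarcd1 and Smarcd3, to Smarca2, the ATPase that was lower in the iPSC, and to Actl6a, the most abundant member in the iPSC. They are Smarcd1 on the plus strand at chr15:99702037-99702336, Smarcd3 on the minus strand at chr5:24601953-24602252, Smarca2 on the plus strand at chr19:26604910-26605209 and Actl6a on the plus strand at chr3:32708296-32708595. The Smarcd3 window lies inside its gene (chr5:24592622-24624456), so it surrounds an internal start site and not the gene's outermost one. Capitals mark the GC box, GGGCGG on either strand.
Smarcd1: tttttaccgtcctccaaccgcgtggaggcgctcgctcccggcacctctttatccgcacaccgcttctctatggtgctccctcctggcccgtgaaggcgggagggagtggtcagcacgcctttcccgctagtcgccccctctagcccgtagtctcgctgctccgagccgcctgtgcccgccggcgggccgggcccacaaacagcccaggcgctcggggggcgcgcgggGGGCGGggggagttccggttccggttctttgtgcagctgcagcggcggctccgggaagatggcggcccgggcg
Smarcd3: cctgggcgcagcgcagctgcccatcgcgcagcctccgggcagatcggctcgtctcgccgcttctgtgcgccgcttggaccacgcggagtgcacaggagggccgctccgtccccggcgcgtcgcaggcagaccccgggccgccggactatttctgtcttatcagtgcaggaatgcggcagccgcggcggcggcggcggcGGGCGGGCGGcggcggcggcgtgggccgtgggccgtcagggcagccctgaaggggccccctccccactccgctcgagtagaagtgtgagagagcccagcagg
Smarca2: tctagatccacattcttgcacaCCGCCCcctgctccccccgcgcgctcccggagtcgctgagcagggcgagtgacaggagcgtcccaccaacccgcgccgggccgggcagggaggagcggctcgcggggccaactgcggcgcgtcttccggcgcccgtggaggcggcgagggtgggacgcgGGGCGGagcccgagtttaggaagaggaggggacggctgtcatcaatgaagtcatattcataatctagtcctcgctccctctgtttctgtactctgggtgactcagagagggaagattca
Actl6a: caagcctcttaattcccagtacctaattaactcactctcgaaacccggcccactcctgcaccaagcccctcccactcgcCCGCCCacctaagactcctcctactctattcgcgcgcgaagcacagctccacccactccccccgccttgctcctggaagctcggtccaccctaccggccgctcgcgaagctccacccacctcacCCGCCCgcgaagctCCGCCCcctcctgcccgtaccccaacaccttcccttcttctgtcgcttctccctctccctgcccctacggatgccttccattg
GC content was 71.3% for Smarcd1, 74.7% for Smarcd3, 65.7% for Smarca2 and 63.7% for Actl6a, against a median of 52.7% over all 32851 windows of the reference. All 11 windows of the 10 genes (Arid1a has 2) held a GC box, from 1 match in Smarcd1 to 7 in the second window of Arid1a, compared with 35.7% of all windows. None of the 11 held a CCAAT box (CCAAT, on either strand), which 37.4% of all windows hold. Likewise none held the E-box CACGTG (7.15% of all windows) or the octamer ATTTGCAT (1.74%). In these windows the rising and the falling paralogues did not differ in which of these 4 motifs they held. The windows of Smarcd3, Smarcd2 and Arid1b lie inside their genes, as does the second of Arid1a. The outermost start sites of Smarcd3, Smarcd2 and Arid1b were not searched.

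Overlapping genes bear on some of the values. The exons of Smarcd3 share 2466 bases, 48.2% of their length in GENCODE, with Chpf2 on the opposite strand, and whether strand was used in counting is not stated, so Smarcd3 is uncertain. Chpf2 was at 27.4 to 27.7 FPKM in MEF, 19.2 to 24.1 at D12 with NanogWT, 5.11 to 6.67 at D12 with NanogBiD and 2.67 in mES. Smaller overlaps, 11.6% of the exon bases of Actl6a with Mrpl47 and 7.13% of those of Smarcd1 with Gm17349, lie on opposite strands too.

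**Figure D1:**
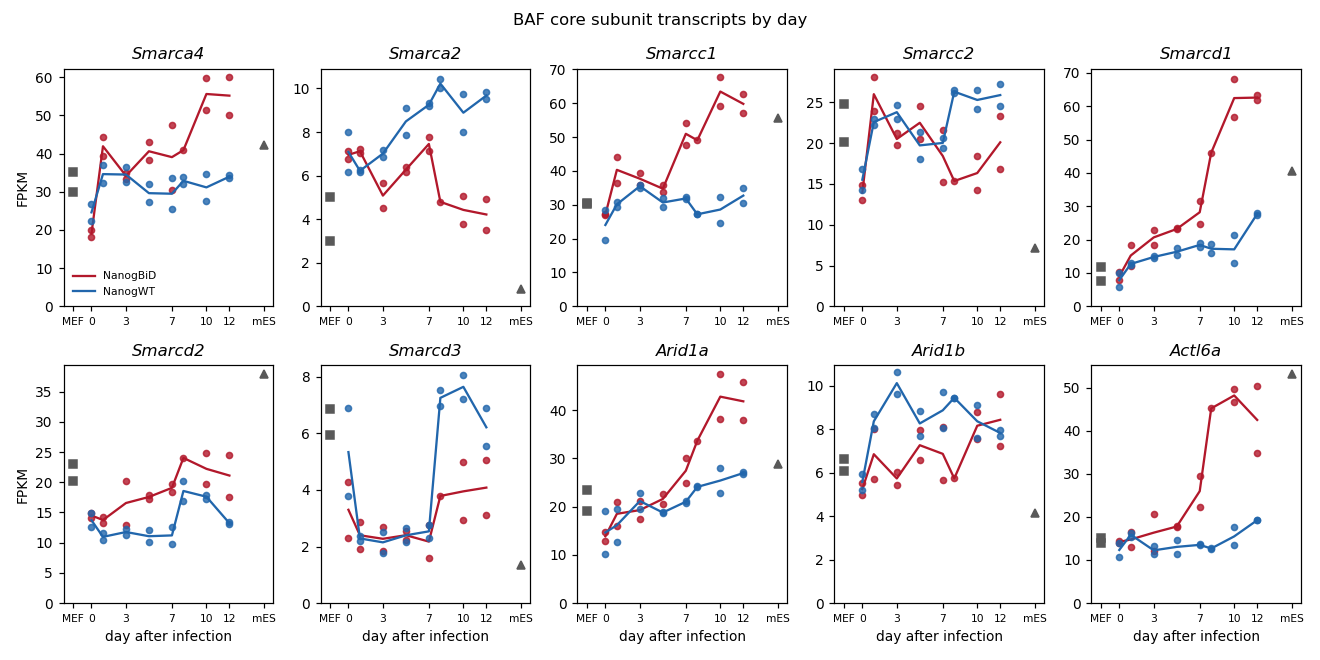
FPKM of the 10 subunit genes by day after infection, with a point per library, lines through the means of NanogBiD (red) and NanogWT (blue), squares for the 2 MEF libraries and a triangle for mES. Smarcd1 and Actl6a were higher with NanogBiD than with NanogWT in every library from D7 on, while Smarca2 lay lower with NanogBiD than with NanogWT from D3.

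Smarca4, the ATPase BRG1 (gene at chr9:21616106-21704230), was at 18.1 and 20.03 FPKM in the 2 NanogBiD libraries of D0 and at 50.2 and 60.2 in those of D12. With NanogWT it was at 22.4 and 26.8 at D0 and at 34.3 and 33.6 at D12. The groups did not overlap at D12, and the NanogBiD libraries lay above mES (42.4) and above MEF (30.0 and 35.2). Within NanogBiD it rose by D12, with a log2 difference of 1.48 (SE 0.18, adjusted p = 5.52e-07). Within NanogWT the difference was 0.45 (SE 0.18, adjusted p = 0.0543), which missed the threshold. NanogWT had reached this range by D1 (32.2 and 37.0), when NanogBiD stood at 39.5 and 44.4.

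Smarca2, the ATPase BRM (chr19:26605073-26778321), went the other way. It was at 6.76 and 7.15 FPKM at D0 and at 3.51 and 4.92 at D12 with NanogBiD, and at 6.17 and 8.00 at D0 and at 9.50 and 9.85 at D12 with NanogWT. MEF held 3.01 and 5.01 and mES held 0.805, so at D12 NanogWT was above both MEF libraries and NanogBiD lay between them. The log2 difference between D12 and D0 within NanogBiD was -0.62 (SE 0.18, adjusted p = 0.00469). It was lost without replicate 1 of NanogBiD D12 (-0.43, adjusted p = 0.0938). With NanogWT the difference was 0.41 (SE 0.18, adjusted p = 0.0747).

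Smarcc1, the scaffold BAF155 (chr9:110132024-110240178), was at 27.2 and 26.9 FPKM at D0 and at 56.9 and 62.6 at D12 with NanogBiD, about the mES level of 55.7. With NanogWT it was at 19.5 and 28.5 at D0 and at 30.5 and 34.9 at D12, about the MEF level of 30.1 and 30.5. Its partner Smarcc2, BAF170 (chr10:128459182-128490591), was at 13.0 and 14.9 FPKM at D0 with NanogBiD, peaked at 23.9 and 28.1 at D1, and was at 14.3 and 18.4 at D10 and 16.9 and 23.4 at D12. With NanogWT it was at 14.3 and 16.8 at D0 and stayed at 24.1 to 27.3 from D8 to D12, near MEF (20.2 and 24.8) and above mES (7.16). Neither combination brought Smarcc2 to the mES level by D12.

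Smarcd1, the SMARCD paralogue of stem cells (chr15:99702287-99713995), showed the largest change of the 10 genes. With NanogBiD it was at 7.80 and 10.2 FPKM at D0, 24.7 and 31.7 at D7, 46.1 in the single library of D8 and 61.9 and 63.2 at D12, a log2 difference of 2.68 between D12 and D0 (SE 0.24, adjusted p = 6.32e-09). With NanogWT it was at 5.84 and 9.85 at D0, 17.8 and 19.1 at D7, 15.9 and 18.6 at D8 and 27.4 and 28.0 at D12, a difference of 1.74 (SE 0.24, adjusted p = 7.62e-06). The NanogBiD libraries of D12 lay above the 40.5 of mES. Smarcd2 (chr11:106263171-106272998), which is broadly expressed, was at 17.6 and 24.6 with NanogBiD and at 13.0 and 13.4 with NanogWT at D12, all below mES (38.0).

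Smarcd3, the paralogue known from heart and muscle (chr5:24592622-24624456), was low throughout. It fell from 3.80 and 6.88 FPKM at D0 to 2.31 and 2.76 at D7 with NanogWT (log2 difference -0.80, SE 0.27, adjusted p = 0.0241), a call that was lost without any 1 of 3 libraries: D0 replicate 1 (-0.44), D7 replicate 1 (-0.89) and D7 replicate 2 (-0.71). At D8 it stood at 6.98 and 7.54, at D10 at 7.22 and 8.08 and at D12 at 5.55 and 6.89, close to MEF (5.96 and 6.88). In the same step from D7 to D8 the fibroblast marker sum went from 1602 and 1655 to 2609 and 2654 FPKM and Chpf2 from 14.6 and 19.7 to 23.5 and 24.3. Their part in the step was not tested, and the change of medium and the change in depth fall on it as well. With NanogBiD, Smarcd3 was at 3.79 at D8, at 2.93 and 4.97 at D10 and at 3.11 and 5.06 at D12. Skeletal and cardiac muscle markers (8 genes) moved otherwise: with NanogWT they summed to 43.4 to 56.03 FPKM at D3, 62.3 to 93.5 at D7, 44.8 to 55.9 at D8 and 8.71 to 10.8 at D12. With NanogBiD they were at 6.56 to 19.5 from D3 to D8 and at 7.65 to 10.4 at D12, and MEF held 32.1 to 36.2. Only 2 of the 8 genes reached 1 FPKM with NanogWT at D3, D7 and D12, and 1 did with NanogBiD at D3 and D7. These sums thus follow few genes and do not stand for the list.

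Arid1a, the ARID subunit that predominates (chr4:133679008-133756769), was at 13.0 and 14.7 FPKM at D0 and 37.9 and 45.8 at D12 with NanogBiD, and at 10.3 and 19.0 at D0 and 26.7 and 27.2 at D12 with NanogWT. It rose in both, with a log2 difference of 1.53 (SE 0.22, adjusted p = 5.81e-06) and of 0.90 (SE 0.22, adjusted p = 0.00318). The second call was lost without NanogWT D0 replicate 1 (0.48, adjusted p = 0.104). Arid1b (chr17:4994297-5347656) kept within 4.96 to 10.6 FPKM in all time-course libraries. At D8, which was not tested, it was at 5.74 with NanogBiD and at 9.45 and 9.46 with NanogWT. Its only call between the combinations by limma was at D3, where NanogBiD was at 5.42 and 6.05 and NanogWT at 9.63 and 10.6 (-0.72, SE 0.17, adjusted p = 0.00916). That call was lost without NanogBiD D3 replicate 1 (-0.66, adjusted p = 0.0812) or NanogWT D3 replicate 2 (-0.66, adjusted p = 0.0977).

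Actl6a (chr3:32708546-32726973), whose product sits in every BAF complex of dividing cells, was at 13.8 and 14.5 FPKM at D0 with NanogBiD, at 22.4 and 29.5 at D7, at 45.2 at D8, at 46.6 and 49.7 at D10 and at 34.7 and 50.3 at D12. With NanogWT it ran from 10.6 and 14.0 at D0 over 13.4 and 13.6 at D7 to 19.2 and 19.3 at D12. It came nearest to the mES level (53.1) in the NanogBiD libraries of D8 to D12. The summed level of 8 genes of dividing cells moved alongside: 469 to 532 FPKM at D12 with NanogBiD, 163 to 177 with NanogWT and 823 in mES. Its part in the Actl6a level was not tested.

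The first comparison asks at which day the combinations came apart. A gene was called at an adjusted p under 0.05 from limma, with no fold limit. None of the 10 genes was called at D0, where 1.64% of all 16915 tested genes were, nor at D1, where 2.8% were. At an unadjusted p under 0.05 there were 0 of the 10 and 2592 of all 16915 genes at D0. At D1 there were 1 of the 10 and 2195 of all genes. At D3 (9.53% of all genes called) the 1 call was Arid1b, lower, and at D5 (15.8%) it was Smarcd2, higher, with 17.3 and 17.9 FPKM against 10.1 and 12.1 (0.63, SE 0.18, adjusted p = 0.0216). The Smarcd2 call at D5 was lost without NanogBiD replicate 1 (0.60), NanogBiD replicate 2 (0.65) or NanogWT replicate 1 (0.51).

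At D7, where 27.7% of all genes were called, 3 of the 10 were, all higher with NanogBiD: Smarcc1 (0.66, SE 0.15, adjusted p = 0.00248), Smarcd2 (0.73, SE 0.18, adjusted p = 0.00479) and, furthest apart, Actl6a (0.88, SE 0.21, adjusted p = 0.00333). Smarcc1 stood at 47.6 and 54.3 FPKM against 31.6 and 32.1. Without NanogWT D7 replicate 2 the Smarcd2 call was lost (0.56, adjusted p = 0.0783), and without NanogBiD D7 replicate 2 that of Actl6a was (0.69, adjusted p = 0.0631). The share of the 10 called at D7 was close to that of all genes.

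At D10 (55.1% of all genes called, 32.2% higher and 22.9% lower) 8 of the 10 were called, 5 higher and 3 lower with NanogBiD. The higher ones were Smarcd1 (1.84, SE 0.24, adjusted p = 1.75e-06), Actl6a (1.59, SE 0.21, adjusted p = 2.21e-06), Smarcc1 (1.13, SE 0.15, adjusted p = 2.49e-06), Smarca4 (0.82) and Arid1a (0.73), and the lower ones Smarca2 (-0.87), Smarcd3 (-0.83) and Smarcc2 (-0.61). In the ATPase, scaffold and Smarcd1/Smarcd3 pairs the one paralogue was higher and its partner lower, while beside Arid1a the partner Arid1b was not called (-0.03, SE 0.17). Smarcd2 was not called either (0.31, SE 0.18). Calls were lost for Smarcc2 without NanogBiD D10 replicate 1 (-0.44), for Smarcd3 without it (-0.53) or without NanogWT D10 replicate 1 (-0.76), and for Arid1a without NanogWT D10 replicate 1 (0.59) or NanogBiD D10 replicate 2 (0.58).

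At D12 (50.2% called, 31.4% higher and 18.8% lower) 7 of the 10 were called. Smarcd1 (1.15, SE 0.24, adjusted p = 0.000464), Actl6a (1.08, SE 0.21, adjusted p = 0.000233), Smarcc1 (0.85, SE 0.15, adjusted p = 8.83e-05), Smarca4 (0.68, SE 0.18, adjusted p = 0.00384), Smarcd2 (0.62, SE 0.18, adjusted p = 0.00767) and Arid1a (0.61, SE 0.22, adjusted p = 0.0282) were higher with NanogBiD and Smarca2 (-1.05, SE 0.18, adjusted p = 5.21e-05) was lower. Smarcc2 (-0.37, SE 0.17), Smarcd3 (-0.53, SE 0.27) and Arid1b (0.08, SE 0.17) were not called. After quantile normalization Smarcc2 (-0.47) and Smarcd3 (-0.75) were called too, and after rescaling to a common total Arid1a was not (0.57, adjusted p = 0.0946). The median log2 difference was 0.61 over the 10 genes and 0.17 over all genes. The calls of Smarca2, Smarcc1, Smarcd1 and Actl6a held without each of the 4 libraries in turn, while that of Smarca4 was lost without NanogBiD D12 replicate 2 (0.55, adjusted p = 0.0525), that of Smarcd2 without NanogBiD D12 replicate 1 (0.39, adjusted p = 0.152) and that of Arid1a without NanogBiD D12 replicate 2 (0.48), NanogWT D12 replicate 1 (0.60) or NanogWT D12 replicate 2 (0.62).

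**Figure D2:**
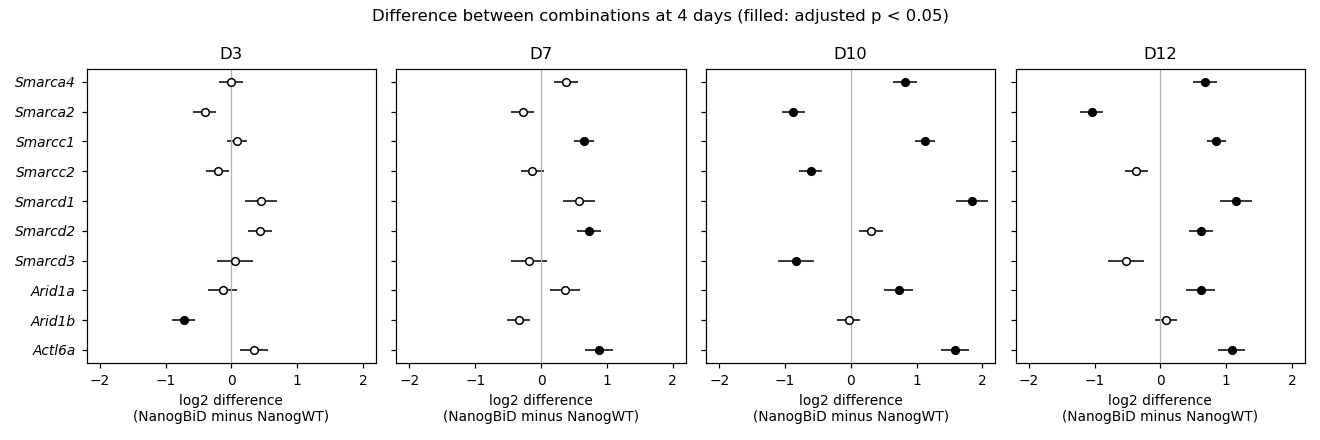
Log2 difference (NanogBiD minus NanogWT, on log2(FPKM + 1)) of each gene at D3, D7, D10 and D12, with bars of 1 SE from limma and filled points for adjusted p under 0.05. The filled points number 1, 3, 8 and 7 of the 10 genes, and Smarca2 is the only filled point left of 0 at D12.

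The change since infection was compared within each combination. By D7, 5 of the 10 genes had risen with NanogBiD (43.3% of all genes called): Smarcd1 (1.55, SE 0.24), Smarca4 (0.97, SE 0.18), Arid1a (0.94, SE 0.22), Smarcc1 (0.89, SE 0.15) and Actl6a (0.82, SE 0.21). With NanogWT, 4 were called by D7 (38.2% of all genes): Smarcd1 (1.17, SE 0.24), Arid1b (0.58, SE 0.17) and Smarcc1 (0.42, SE 0.15) rose and Smarcd3 fell. The Actl6a call was lost without NanogBiD D7 replicate 2 (0.62). Those of Smarcc1 and Arid1b with NanogWT were lost without D0 replicate 1 (0.15 and 0.50) or D7 replicate 1 (0.40 and 0.46), and that of Smarcc1 also without D7 replicate 2 (0.43). Both were lost after quantile normalization (0.33 for Smarcc1 and 0.32 for Arid1b), and that of Smarcd3 after rescaling to a common total (-0.79, adjusted p = 0.0526).

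By D12, 9 of the 10 were called with NanogBiD (61.3% of all genes, 42.5% higher and 18.8% lower), 8 higher and Smarca2 lower. Smarcd1 (2.68), Arid1a (1.53), Actl6a (1.50), Smarca4 (1.48) and Smarcc1 (1.11) rose by more than 2-fold, and these 5 calls held without each library in turn. Arid1b (0.59), Smarcd2 (0.50) and Smarcc2 (0.49) were called at sizes close to the median of all genes, 0.34, and lost their calls after quantile normalization, which moved that median to -0.01. Smarcd3 (0.25, SE 0.27) was not called and changed sign after quantile normalization (-0.28). The Arid1b call was also lost without NanogBiD D12 replicate 2 (0.40), that of Smarcc2 without D0 replicate 2 (0.39) or D12 replicate 2 (0.26), and that of Smarcd2 without D0 replicate 1 (0.54), D0 replicate 2 (0.45) or D12 replicate 1 (0.27).

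With NanogWT, 5 of the 10 were called by D12 (37.7% of all genes, 27.1% higher and 10.6% lower), all higher: Smarcd1 (1.74), Arid1a (0.90), Smarcc2 (0.71, SE 0.17, adjusted p = 0.00291), Actl6a (0.61) and Smarcc1 (0.45). Smarcd1 and Smarcc2 held without each library in turn. Smarcc1 was lost without D0 replicate 1 (0.19) or D12 replicate 2 (0.36), and Actl6a without D0 replicate 2 (0.43), D12 replicate 1 (0.61) or D12 replicate 2 (0.62). In a fit to the compared groups alone 1 of the 10, Smarcd1, was called, and after rescaling to a common total 8 were.

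The difference between these changes was tested as an interaction, in which 36.5% of all genes were called. The change from D0 to D12 was more positive with NanogBiD for Smarca4 (1.03, SE 0.26, adjusted p = 0.00363), Smarcd1 (0.94, SE 0.34, adjusted p = 0.0345), Actl6a (0.88, SE 0.30, adjusted p = 0.0251) and Smarcc1 (0.66, SE 0.21, adjusted p = 0.0195), and more negative for Smarca2 (-1.03, SE 0.25, adjusted p = 0.00296). Of these, Smarca4 (0.90 to 1.16) and Smarca2 (-1.23 to -0.83) kept their calls without each of the 8 libraries in turn. The call of Smarcc1 was lost without 3 of them (NanogWT D0 replicate 2, NanogWT D12 replicate 1 and NanogBiD D12 replicate 2, lowest 0.40). That of Smarcd1 was lost without any but NanogBiD D0 replicate 1 and NanogWT D0 replicate 2 (lowest 0.61), and that of Actl6a without NanogBiD D0 replicate 1, NanogBiD D12 replicate 1, NanogWT D0 replicate 1 or either NanogWT library of D12 (lowest 0.62). After rescaling to a common total 3 of the 5 were called, without Smarcc1 (0.56) and Smarcd1 (0.83), and Smarcd1 also lost its call with a pseudocount of 0.1 or no filter.

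The balance within each pair was then followed as the log2 ratio of (FPKM + 1), which a rescaling of a whole library hardly moves. The ratio of Smarca4 to Smarca2 in FPKM was 2.67 and 2.80 at D0 and 12.2 and 14.3 at D12 with NanogBiD, and 3.35 and 3.64 at D0 and 3.41 and 3.61 at D12 with NanogWT. MEF stood at 5.99 and 11.7 and mES at 52.7. Both combinations thus started below MEF, NanogBiD passed both MEF libraries at D12 and NanogWT was at its D0 level. At D1 the combinations overlapped, at 5.62 and 6.14 with NanogBiD and 5.14 and 5.99 with NanogWT.

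For Smarcc1 over Smarcc2 the ratio was 1.81 and 2.10 at D0, 2.51 and 3.12 at D7 and 2.68 and 3.38 at D12 with NanogBiD, and 1.16 and 2.00, 1.56 and 1.63, and 1.12 and 1.42 with NanogWT. MEF stood at 1.21 and 1.51 and mES at 7.79. For Smarcd1 over Smarcd3 it was 2.38 and 3.37 at D0, 11.5 and 15.5 at D7 and 12.5 and 19.9 at D12 with NanogBiD. With NanogWT it was 1.43 and 1.54 at D0, 6.91 and 7.68 at D7, 2.28 and 2.47 at D8 and 4.07 and 4.94 at D12, so that it turned back at the step from D7 to D8. MEF stood at 1.29 and 1.73 and mES at 30.3. For Arid1a over Arid1b it was 2.34 and 2.97 at D0 and 4.74 and 5.24 at D12 with NanogBiD and 1.96 and 3.20 at D0 and 3.41 and 3.47 at D12 with NanogWT, against 2.89 and 3.85 in MEF and 6.93 in mES.

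**Figure D3:**
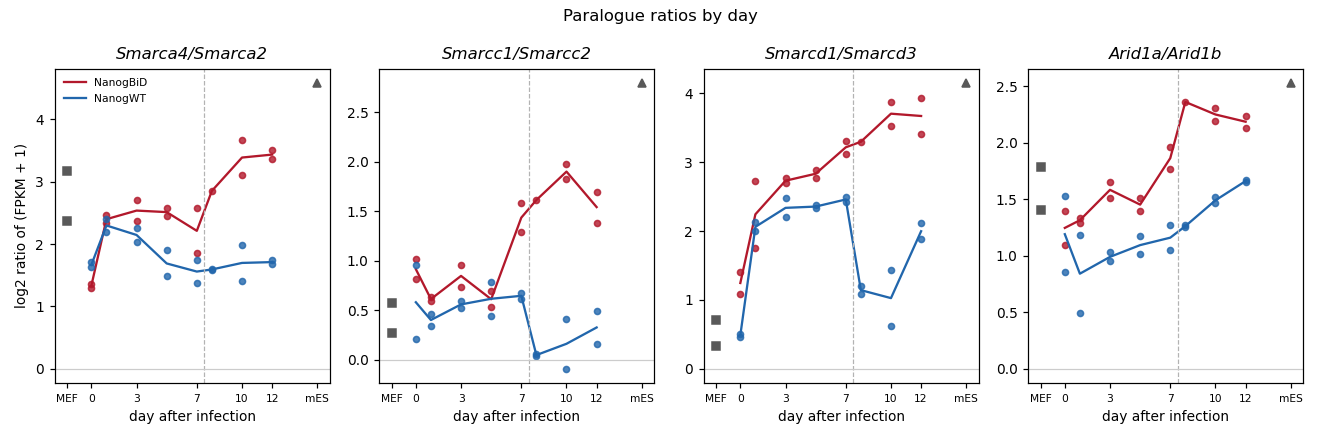
Log2 ratio of (FPKM + 1) for the 4 paralogue pairs by day, with a point per library, lines through group means, squares for MEF, a triangle for mES and a dashed line between D7 and D8. In all 4 pairs the NanogBiD libraries of D8 to D12 lie above the NanogWT libraries of the same day.

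All 4 ratios were higher with NanogBiD in both windows of the time course by exact two-sided permutation tests that exchanged the combination within each day, with p adjusted over 8 tests. Over D0 to D7, where depth was alike, the mean log2 difference was 0.51 for Smarcd1/Smarcd3 (pooled SD within groups 0.25), 0.44 for Arid1a/Arid1b (SD 0.24), 0.33 for Smarca4/Smarca2 (SD 0.23) and 0.32 for Smarcc1/Smarcc2 (SD 0.21). The adjusted p of this exact permutation test was 0.0376 for Smarca4/Smarca2 and 0.0112 for each of the other 3, over 7776 arrangements. With same-numbered replicates taken as pairs, an exact test gave an adjusted p of 0.0625 for Smarca4/Smarca2, which missed the threshold of 0.05. For each of the other 3 it gave 0.0208. Over D8 to D12 the differences were 2.17 for Smarcd1/Smarcd3 (SD 0.34), 1.56 for Smarca4/Smarca2 (SD 0.26), 1.51 for Smarcc1/Smarcc2 (SD 0.22) and 0.80 for Arid1a/Arid1b (SD 0.05). In this window each had an unadjusted p of 0.00926 (adjusted 0.0112) in the exact permutation test, the smallest that its 108 arrangements allow. The Smarca4/Smarca2 difference of D0 to D7 was 0.17 without replicate 1 of every group and 0.48 without replicate 2, and it was 0.49 without D0, the day on which NanogBiD was the lower of the combinations. Mean log2 Smarcd1/Smarcd3 was already 1.25 with NanogBiD and 0.49 with NanogWT at D0, and 3.22 and 2.46 at D7. For Smarcc1/Smarcc2 the means were 0.91 and 0.58 at D0 and 0.61 and 0.61 at D5, and for Arid1a/Arid1b 1.25 and 1.19 at D0. The mean over D0 to D7 is thus not a change since infection.

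Within a combination, the 4 libraries of D10 and D12 were set against the 4 of D0 and D1. With NanogBiD the 4 ratios were higher late by 1.94 (Smarcd1/Smarcd3), 1.55 (Smarca4/Smarca2), 0.96 (Smarcc1/Smarcc2) and 0.94 (Arid1a/Arid1b) on the log2 scale, with no overlap between late and early libraries. Each reached p = 0.0286 in the exact two-sided permutation test, the smallest its 70 arrangements allow, and adjusted over 8 tests that became 0.0571, which misses the threshold. With NanogWT the late-minus-early values were 0.56 (Arid1a/Arid1b), 0.24 (Smarcd1/Smarcd3), -0.25 (Smarcc1/Smarcc2) and -0.28 (Smarca4/Smarca2), with adjusted p of 0.137 to 0.743 by the same exact test. The SMARCD values with NanogWT spread widely (SD 0.80), and D12 minus D0 alone gave 1.51.

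The 3 SMARCD genes were also taken as shares of their summed FPKM. In MEF, Smarcd2 held 55.1% to 59.6%, Smarcd1 22.8% to 28.5% and Smarcd3 16.4% to 17.6%. At D12 with NanogBiD, Smarcd1 held 69.1% to 73.6% and Smarcd3 3.47% to 5.88%. At D12 with NanogWT, Smarcd1 held 58.0% to 59.6% and Smarcd3 12.1% to 14.3%. In mES, Smarcd1 (50.8%) and Smarcd2 (47.6%) were about equal, so at D12 both combinations held a larger share of Smarcd1 than mES did. These shares are a description, with 2 libraries a group and 1 of mES.

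**Figure D4:**
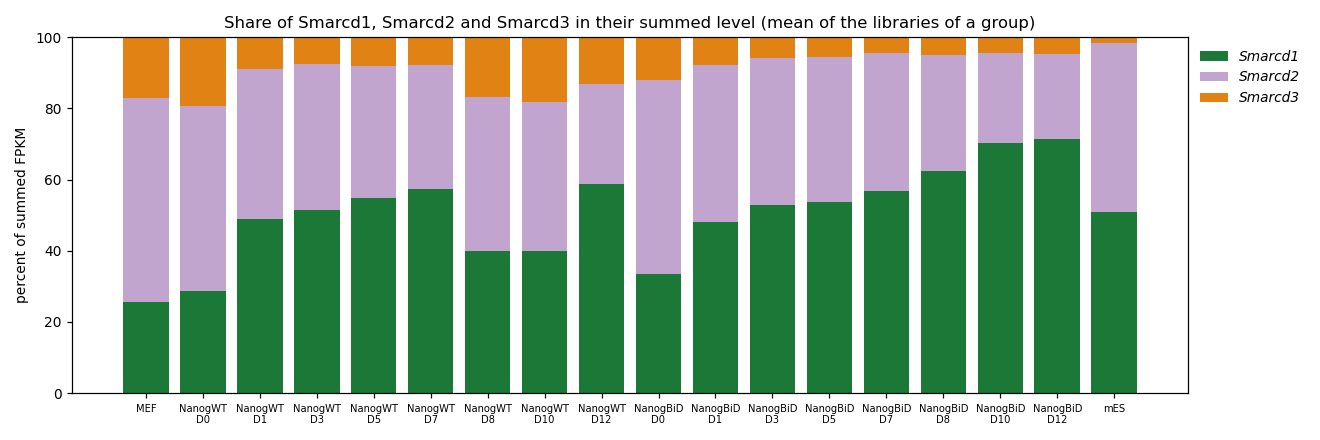
Mean share of Smarcd1 (green), Smarcd2 (violet) and Smarcd3 (orange) in their summed FPKM, in percent, for each group of the gene table. The share of Smarcd3 falls after D0 in both combinations and is larger again in NanogWT from D8 to D12, at 12.1% to 20.8% per library.

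Established iPSC were compared with MEF on summed transcripts, in a separate table whose levels differ from those of the gene table (Smarca4 in the same 2 MEF libraries was 44.6 and 49.9 FPKM here). Of the 10 genes 8 were called, where 71.4% of all 13312 tested genes were (41.2% higher and 30.2% lower), 5 higher and 3 lower in iPSC. Actl6a was at 73.0 to 110 FPKM in the 12 iPSC (median 95.7) against 19.96 and 21.4 in MEF, a log2 difference of 2.11 (SE 0.14, adjusted p = 7.38e-08). Smarcd1 was at 31.4 to 67.1 (median 48.2) against 7.79 and 11.2 (2.27, SE 0.23, adjusted p = 1.99e-06). Arid1a (1.25, SE 0.18), Smarcc1 (1.02, SE 0.20) and Smarca4 (0.48, SE 0.11, adjusted p = 0.00203) were higher too. The call of Smarca4 was lost after rescaling to a common total or quantile normalization, the first of which moved the median of all genes from 0.22 to 0.03.

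Smarca2 was at 0.470 to 1.74 FPKM in the 12 iPSC (median 1.05) against 6.58 and 8.83 in MEF (-2.12, SE 0.22, adjusted p = 2.33e-06), Smarcc2 at 3.69 to 8.15 (median 6.68) against 24.8 and 28.8 (-1.85, SE 0.16, adjusted p = 6.84e-07) and Smarcd3 at 0.117 to 3.92 (median 1.64) against 10.8 and 14.1 (-2.40, SE 0.48, adjusted p = 0.000595). No iPSC library overlapped MEF for any of the 8 called genes, but the share of all genes without such overlap was not counted. Smarcd2, at 17.9 to 27.9 against 21.5 and 23.3, overlapped MEF (-0.05, SE 0.13), as did Arid1b, at 4.30 to 9.19 against 6.70 and 7.44 (-0.22, SE 0.18). All 8 calls held without each of the 14 libraries in turn. Chpf2, which overlaps Smarcd3, was at 2.37 to 13.7 FPKM in iPSC against 32.2 to 33.7 in MEF. Against the single mES library, all 12 iPSC were higher in Arid1a (34.3 to 60.6 against 25.3). They were lower in Smarcd2 (37.9 in mES) and, by less, in Smarcc2 (8.44 in mES).

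The ratios moved with these levels. The FPKM ratio of Smarca4 to Smarca2 was 32.9 to 147 in iPSC against 5.05 and 7.58 in MEF and 48.7 in mES. Smarcc1 over Smarcc2 was 6.30 to 24.0 against 1.08 and 1.32, with 6.88 in mES. Smarcd1 over Smarcd3 was 16.3 to 310 against 0.719 and 0.792, with 11.8 in mES. In the gene table the same mES library had 30.3 and the same MEF libraries 1.29 and 1.73, so this ratio depends on the table and its mES level is not ranked against the iPSC. Arid1a over Arid1b was 4.55 to 11.9 against 2.29 and 3.12, with 4.35 in mES. That mES library had 6.93 in the gene table, so its level is not ranked against the iPSC either. On the log2 scale iPSC exceeded MEF by 4.68 for Smarcd1/Smarcd3, 2.90 for Smarcc1/Smarcc2, 2.60 for Smarca4/Smarca2 and 1.44 for Arid1a/Arid1b, with pooled SD of 0.41 to 0.51. Each had p = 0.011 in the exact permutation test, the smallest for 91 arrangements (adjusted 0.022).

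**Figure D5:**
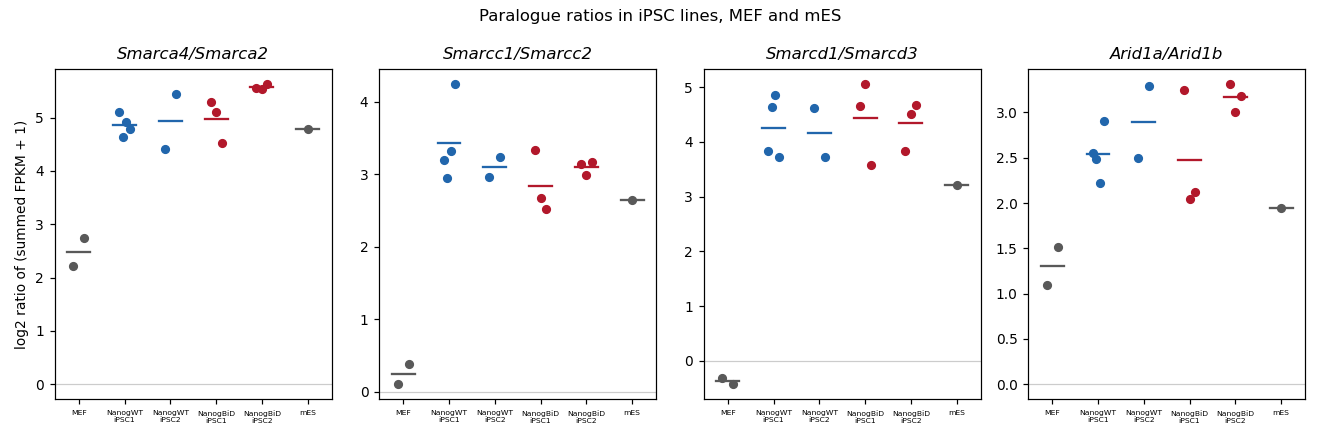
Log2 ratio of (summed FPKM + 1) for the 4 pairs in MEF, the 4 groups of iPSC and mES, with a point per library and a bar at the group mean. All 12 iPSC lie above both MEF libraries in each pair, and the 3 samples of NanogBiD iPSC2 lie together for Smarca4/Smarca2 at log2 values of 5.53 to 5.64.

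The iPSC of the 2 combinations were not told apart by these genes. By limma none of the 10 was called between NanogBiD iPSC and NanogWT iPSC, where 0 of all 13312 genes (0%) were, with 1 of the 10 and 227 of all genes at an unadjusted p under 0.05. The log2 differences ran from -0.24 (Smarca2) to 0.28 (Smarcc2). For the ratios the differences were 0.38 (Smarca4/Smarca2, SD 0.35), -0.29 (Smarcc1/Smarcc2, SD 0.42), 0.17 (Smarcd1/Smarcd3, SD 0.61) and 0.10 (Arid1a/Arid1b, SD 0.44), with adjusted p of 0.169 to 0.674 by an exact permutation within line (350 arrangements). These values do not show that the lines are alike. NanogBiD iPSC1 sample 9 stood apart, with 1419 FPKM of the fibroblast markers against 2.95 to 442 in the other 11, 1927 FPKM of the pluripotency markers, the lowest of the 12, and a Smarca4/Smarca2 ratio of 36.1. Without it the Smarca4/Smarca2 difference was 0.49 and past the threshold (adjusted p = 0.0205, exact permutation, 150 arrangements). Without NanogWT iPSC2 sample 5 it was 0.12, and without NanogWT iPSC2 sample 6 it was 0.64, neither past it.

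Of the 62 transcripts, 22 reached a mean of 1 FPKM in iPSC or MEF, and 24 passed the filter. Of these 24, 12 were called between iPSC and MEF (35.1% of all 26937 tested transcripts), 5 higher and 7 lower. Between the iPSC of the combinations 0 of the members' transcripts were called (0.0371% of all). At an unadjusted p under 0.05 there were 0 of the 24 and 1091 of all 26937. The rise of Smarcd1 and Smarcc1 came from their single transcripts, NM_031842.2 and NM_009211.2. That of Actl6a was in NM_019673.2, with 93.3% of the gene's FPKM in iPSC on average and 79.3% to 85.5% in MEF, while the share of XM_006535503.3 was 6.71% and 14.5% to 20.7%. That of Arid1a was in NM_001080819.1 (1.22, SE 0.18) and XM_006539326.3 (1.21, SE 0.25), whose mean shares in iPSC were 82.3% and 14.6%. Smarcd3 fell mainly in NM_025891.3, at 9.27 and 12.5 FPKM in MEF and 0 to 3.79 in iPSC (-2.46, SE 0.53, adjusted p = 0.00298).

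Smarca4 and Smarca2 were split over 16 transcripts each. For Smarca4, 3 carried over 1 FPKM (NM_001174079.1, NM_011417.3 and XM_017313232.1), and none was called. XM_017313232.1 ranged from 0 to 56.6 FPKM among the 12 iPSC and NM_011417.3 from 5.41 to 43.8, while the sum kept within 57.2 to 82.4. Single transcripts of such genes therefore carry less precision than their sum. For Smarca2 the called transcript was XM_006527288.2 (-1.78, SE 0.14, adjusted p = 2.00e-06), listed at 0 in 11 of 12 iPSC. Also tested were XM_006527283.3 (0.19, SE 0.31) and XM_006527281.3 (0.59, SE 0.36), which had positive differences and were not called. For Smarcc2, 4 of its 8 transcripts fell (NM_001114097.1, NM_198160.2, XM_006514022.3 and XM_006514023.3), of which NM_198160.2 and NM_001114097.1 held 43.8% and 41.5% of the gene's FPKM in iPSC. Without MEF replicate 1 only 7 of the 12 transcripts were called, and without MEF replicate 2 only 9.

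Other genes of the BAF family, a list of 20, were counted alongside. Between the combinations at D12, 10 of the 20 were called, all higher with NanogBiD, led by Bicral (1.19, SE 0.18), Dpf2 (1.05, SE 0.14) and Bcl7a (0.90, SE 0.28), and 12 of 20 at D10, shares near the 50.2% and 55.1% of all genes called on those days. The median over the 20 was 0.44 at D12, against 0.17 over all genes. Dpf2, a PHD-finger subunit of canonical BAF, was at 38.6 and 41.3 FPKM against 17.5 and 20.03. At D0 and D1 the only one called was Ss18 (1.10, SE 0.17 at D0), a piece of which is in the fusion. Reads of the vector and of the endogenous gene were not separated, and their part in the value was not tested. At D3, 4 of 20 were called (9.53% of all genes, Ss18 higher by 1.80, Bicra and Brd9 lower at -0.94 and -0.63), at D5 4 (15.8%, Ss18 1.87, Brd9 -0.62, Bcl11a -0.55) and at D7 8 (27.7%, Ss18 1.18, Bcl7a 1.07, Dpf2 0.76).

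From D0 to D12, 15 of the 20 were called with NanogBiD (61.3% of all genes) and 13 with NanogWT (37.7%), all higher. They were led by Bcl7a (2.40), Actl6b (2.25) and Ss18l1 (1.91) with NanogBiD and by Bcl11a (1.82), Actl6b (1.76) and Bcl7a (1.67) with NanogWT. Actl6b and Ss18l1 are the neuronal counterparts of Actl6a and Ss18, and the summed level of 7 neuron markers was 71.3 to 79.3 FPKM at D0 and 493 to 693 at D12 with NanogBiD and 52.8 to 72.9 and 439 to 445 with NanogWT. The neuron sum had been at 398 to 536 FPKM already at D3 with NanogBiD, when Actl6b was at 0.036 or less, so the sum and Actl6b did not move together before D10. By D7, 7 had been called with NanogBiD (43.3% of all genes), led by Bcl7c (1.17), Bcl7a (0.96) and Smarce1 (0.85), and 5 with NanogWT (38.2%), led by Bcl11a (0.87), Phf10 (0.70) and Ss18l1 (0.66). In the interaction 3 were called (36.5% of all genes), Bcl7c (1.14), Bicral (1.06) and Dpf2 (0.85). Between iPSC and MEF, 10 of the 14 tested were called, the share of all genes (71.4%), 6 higher and 4 lower, led by Phf10 (-0.83), Dpf1 (0.73) and Dpf2 (0.65).

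The genes with the most similar pattern over the 34 libraries of the gene table were named by Pearson r of log2(FPKM + 1), leaving out genes whose mean was under 5 FPKM. The points share libraries, days and depth, and r is given as a description. Actl6a was nearest to Ptma (r = 0.969), Trim28 (0.967) and Nasp (0.965), Arid1a to Hcfc1 (0.961), Zfp609 (0.958) and Kmt2b (0.923), and Smarcc1 to Ccp110 (0.954), Drosha (0.952) and Sf3a1 (0.950). Smarcd1 was nearest to Cry1 (0.951), Bex2 (0.948) and Dclk2 (0.945), Smarca4 to Smc1a (0.931), Kdm6b (0.925) and Fbxl19 (0.905), and Smarcd2 to Thap11 (0.896), Wdr74 (0.893) and Rcc1l (0.892). On the other side, Smarca2 was nearest to Atrnl1 (0.929), Sspn (0.915) and Lama4 (0.906), and Smarcd3 to Fmod (0.900), Thbs3 (0.896) and Nuak1 (0.890). Smarcc2 was nearest to Zswim8 (0.900), Gripap1 (0.885) and Evc2 (0.847), and Arid1b to Arhgef11 (0.897), Bcl9 (0.830) and Dtx4 (0.815). Among the members, Smarcd1 and Actl6a had r = 0.865, Smarcc1 and Smarca4 0.823, Smarca4 and Smarca2 -0.415, and Smarcc1 and Smarcc2 -0.278.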

How the data were processed

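RNA was FreeZol total RNA sequenced as mRNA, in 46 samples. The authors trimmed reads with Trim Galore (0.6.4), aligned them to mm10 with HISAT2 (2.2.1) and assigned FPKM with StringTie (2.2.1), per the labels and the study's methods. The deposited values are FPKM per gene (34 libraries of MEF, time course and mES) and per transcript (15 libraries of iPSC, MEF and mES), normalized separately. The annotation and the use of strand in counting are not given in the sources used here. FPKM tables hold no counts, so absolute depth is unknown and no counting interval or floor is given. The study's GFOLD comparison needs reads and was not used.

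Transcripts were summed by symbol. Features reaching 1 FPKM in 2 or more libraries were tested on log2(FPKM + 1) with limma 3.58.1 in R 4.3.3 (trend, empirical Bayes), one mean per group over 33 libraries of the gene table, or 12 iPSC and 2 MEF libraries, mES being described only. P-values were adjusted by Benjamini-Hochberg over all features and called under 0.05. Fold changes on this scale understate those of low genes. Ratios were compared by exact two-sided permutation. D8, with 1 NanogBiD library, entered the limma fit but no limma comparison. All scripts were tested on simulated data. Alternatives were a pseudocount of 0.1, no filter, a common total, quantile normalization, a 2-fold limit and the compared groups alone. Further ones were D0 to D7 alone, each library left out, a replicate block and the mean of NanogWT iPSC1 samples 1# and 1#-2. All 10 members were named throughout, with the 3 largest calls of 20 other BAF genes, the 3 genes nearest to each member, and transcripts with a mean of at least 1 FPKM. The members and lists were chosen with earlier results of these data known.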

Additional observations from a re-analysis of the deposited data

Results flagged for a closer look

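In groups of 6 iPSC libraries, 3 of 28 sets of values held a sample apart from the rest by Dixon's criterion, which chance gives in about 1 of 20 sets. Summed Smarcc2 was 3.69 FPKM in NanogWT iPSC1 sample 2, where the nearest NanogWT iPSC had 5.78. The same library had a log2 Smarcc1/Smarcc2 ratio of 4.25, with the nearest at 3.32, and the highest sum of pluripotency markers of the 12 (5296 FPKM). Summed Smarcd2 was 27.9 FPKM in NanogWT iPSC2 sample 5, where the nearest was 22.2.

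The change from D0 to D12 differed between the combinations for 5 genes by the interaction test of limma. NanogBiD exceeded NanogWT in this change by 1.03 for Smarca4, 0.94 for Smarcd1, 0.88 for Actl6a and 0.66 for Smarcc1 on the log2 scale, and the value for Smarca2 was -1.03. The calls of Smarca4 and Smarca2 held without each of the 8 libraries in turn. Those of Smarcd1, Actl6a and Smarcc1 were lost without 6, 5 and 3 of the 8, and 3 of the 5 genes were called after rescaling to a common total. In the 6 NanogWT libraries of D8 to D12 depth was 1.85 to 3.17 on the relative scale and cannot be told apart from the combination.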

How the results depend on the processing

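Of 1810 values of single genes under an alternative, 1671 kept their side of the threshold, 114 lost a call and 25 gained one. Among values with a call, 0 changed direction. Changes of sign without a call were not counted as reversals, and single transcripts were not among these values. With NanogWT iPSC1 samples 1# and 1#-2 averaged, all 20 gene values kept their side of the threshold. Of 419 counts and ratios 372 stayed close to their reported value. With a 2-fold limit the members called fell to 0 at D3, D5 and D7, 3 at D10 and at D12, 1 for D7 minus D0 in either combination, 5 (NanogBiD) and 1 (NanogWT) for D12 minus D0, and 2 in the interaction. With the compared groups alone they were 0 at D3, 2 at D5, 1 for NanogWT at D7 and at D12 minus D0 and 2 in the interaction. A common total gave 8 for NanogWT D12 minus D0 and 3 in the interaction, and quantile normalization gave 3 for the former. Leaving out 1 library gave 0 to 3 at D3, 0 to 1 at D5, 1 to 5 and 3 to 6 for NanogWT D7 and D12 minus D0, 2 to 4 in the interaction and 7 to 12 transcripts for iPSC against MEF. The cause of these shifts was not tested.

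D12 minus D0 alone gave 2.10 (NanogBiD) and 0.044 (NanogWT) for log2 Smarca4/Smarca2, 0.63 for Smarcc1/Smarcc2 with NanogBiD and 1.51 for Smarcd1/Smarcd3 with NanogWT. Without D8 the Arid1a/Arid1b difference over D8 to D12 was 0.64. Without replicate 1 or 2 of every group it ran from 0.64 to 0.80, that of Smarcc1/Smarcc2 from 1.15 to 1.72, that of Smarcd1/Smarcd3 from 1.69 to 2.51, and the late change of Arid1a/Arid1b with NanogWT from 0.23 to 0.89. Leaving out 1 iPSC library gave 0.12 to 0.64 for Smarca4/Smarca2 between the iPSC of the combinations, and 0.49 without NanogBiD iPSC1 sample 9.

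Whether replicate numbers mark paired samples is not stated. Same-numbered deviations correlated at -0.065 to 0.395 over the 7 days, with the highest values at D7 (0.395) and D0 (0.227). Pairing on some days is thus not excluded, and a replicate block is only a hint. With it the members called were 5 and 6 for NanogWT D7 and D12 minus D0 in place of 4 and 5, and no other count of members moved. Smarca4/Smarca2 over D0 to D7 kept its value of 0.33 with an adjusted p of 0.0625 by the exact test, and Arid1a/Arid1b over D8 to D12 was 0.73. Over D8 to D12 the blocked test cannot go below 0.0625.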
